A study of Mus musculus with 4 samples.

Results

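The cyclin-dependent kinase inhibitor loci comprise the genes Cdkn2a, Cdkn2b, Cdkn2c, Cdkn1a and Cdkn1b, and the data are the peaks of trimethylated histone H3 lysine 27 (H3K27me3) that overlap fixed windows around these 5 genes. The windows, on mouse build mm9, ran from 88.90 to 88.98 Mb on chromosome 4 for Cdkn2a and Cdkn2b together, from 109.32 to 109.36 Mb on chromosome 4 for Cdkn2c, from 29.21 to 29.25 Mb on chromosome 17 for Cdkn1a and from 134.86 to 134.89 Mb on chromosome 6 for Cdkn1b. A peak was taken when it overlapped a window by at least 1 bp. This gave 13 of the 20024 peaks called in bone marrow cells and 18 of the 31847 peaks called in fetal liver cells.

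The study held 4 samples, an H3K27me3 immunoprecipitation and an input from each of the 2 cell populations. The bone marrow cells were lineage-negative progenitors, depleted of mature blood cells by surface markers, from the long bones of C57BL/6 mice aged 8 weeks. The fetal liver cells were lineage-negative progenitors of C57BL/6 embryos at embryonic day 14.5. All 4 samples, inputs included, carried a lentivirus with N1dE (NOTCH1ΔE), an activated form of NOTCH1, and GFP-positive cells were sorted after 3 days of culture with cytokines. No untransduced cells were analysed here, so the values describe NOTCH1-transduced cells in culture and not fresh progenitors. The authors called peaks once per population, with its libraries merged, so the spread between replicates is not known and no test between populations was made. The read depth is unknown, and a place without a peak is a place below the authors' calling threshold, not one shown to lack the mark.

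Cyclin-dependent kinase inhibitors hold cells before DNA replication. The INK4 proteins bind the kinases CDK4 and CDK6 and keep them from pairing with D-type cyclins, so that the retinoblastoma protein stays active. The CIP/KIP proteins bind cyclin-kinase complexes more widely, above all those of CDK2. H3K27me3 is laid down by Polycomb repressive complex 2, and silencing of the Cdkn2a locus by Polycomb proteins is known to be needed for the self-renewal of blood stem cells. Cdkn2a codes for p16INK4a and, from a separate upstream first exon and another reading frame, for p19ARF, which stabilises p53. Loss of this locus is frequent in T-cell leukaemia.

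The 5 genes were matched to 8 promoters of the RefSeq table on build GRCm38.p6, each with the bases before a start site. Cdkn2a, Cdkn2c and Cdkn1a each had a pair of start sites. The peaks are on mm9, so no promoter could be set on a peak, and the sequences are given for their base composition alone. Polycomb domains in mammals often lie over CpG-rich promoters, and the sequences shown are both starts of Cdkn2a, from the window with the most bases in peaks, and the start of Cdkn1b, from the window with no called peak. Each line gives the 250 bases before the start, 5′ to 3′ on the gene's strand, with CpG dinucleotides in capitals.
Cdkn2a upstream start (chr4:89294620-89294869, minus strand): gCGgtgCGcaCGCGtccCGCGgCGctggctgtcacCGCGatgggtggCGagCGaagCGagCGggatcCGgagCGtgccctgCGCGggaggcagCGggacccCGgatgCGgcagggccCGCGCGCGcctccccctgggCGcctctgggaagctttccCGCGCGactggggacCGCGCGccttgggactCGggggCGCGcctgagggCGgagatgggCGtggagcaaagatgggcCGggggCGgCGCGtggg
Cdkn2a downstream start (chr4:89282193-89282442, minus strand): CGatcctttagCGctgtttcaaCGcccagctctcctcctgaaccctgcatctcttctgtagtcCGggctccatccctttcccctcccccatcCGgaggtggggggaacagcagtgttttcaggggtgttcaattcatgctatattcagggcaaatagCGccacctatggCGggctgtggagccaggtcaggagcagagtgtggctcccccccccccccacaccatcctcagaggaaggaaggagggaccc
Cdkn1b start (chr6:134920151-134920400, plus strand): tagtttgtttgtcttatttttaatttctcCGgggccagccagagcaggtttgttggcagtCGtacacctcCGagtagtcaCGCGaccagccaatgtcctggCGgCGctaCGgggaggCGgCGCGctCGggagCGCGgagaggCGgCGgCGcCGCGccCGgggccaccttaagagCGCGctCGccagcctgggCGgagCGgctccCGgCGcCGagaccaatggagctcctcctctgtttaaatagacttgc

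The upstream Cdkn2a promoter, that of the p19ARF first exon, held 40 CpG in 250 bases, more than or as many as 98.9% of the 32841 promoters of the table. The downstream Cdkn2a promoter held 7, close to the median of 6 over all promoters. Cdkn1b, without a peak in its window, held 28 CpG, at percentile 93.2, and its ratio of observed to expected CpG was 1.08, as was that of the upstream Cdkn2a promoter. The single Cdkn2b promoter held 12 CpG. The upstream and downstream starts held 29 and 6 at Cdkn2c and 2 and 19 at Cdkn1a.

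**Figure D1:**
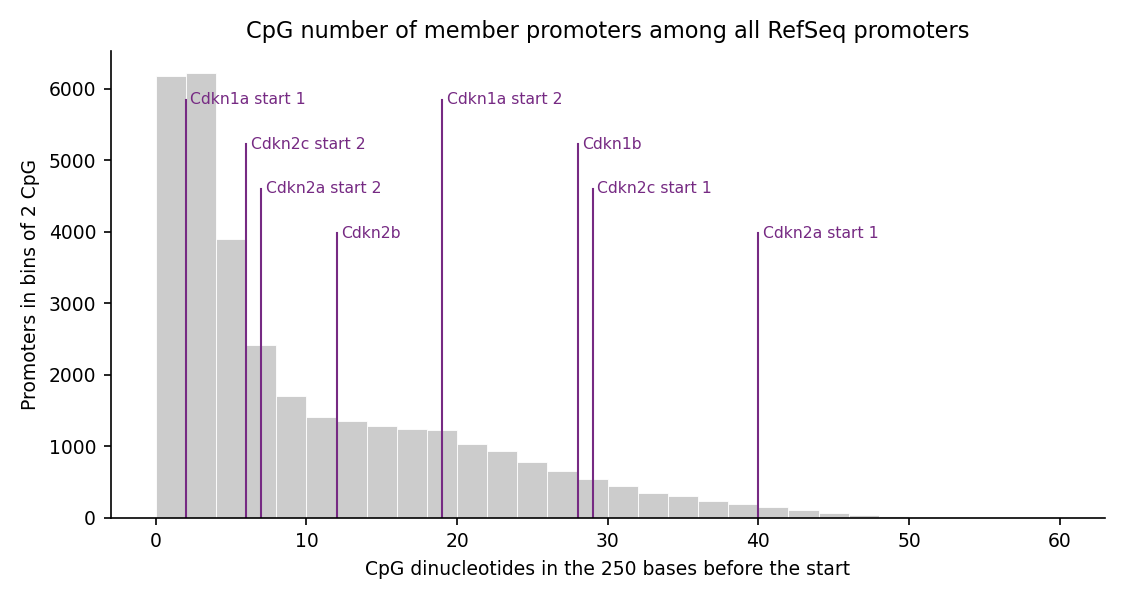
Number of CpG dinucleotides in the 250 bases before a start site (horizontal axis) for the 32841 RefSeq promoters, as grey bars counting promoters in bins of 2 CpG; purple lines mark the 8 promoters of the 5 inhibitor genes, with start 1 the upstream and start 2 the downstream site. The members run from 2 CpG at the upstream Cdkn1a start to 40 at the upstream Cdkn2a start, and Cdkn1b lies at 28.

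H3K27me3 peaks lay in 3 of the 4 windows, and these were the same windows in both populations in the lists as deposited. Across the genome, 6806 of 7621 stretches of 80 kb with a bone marrow peak also held a fetal liver peak. For stretches of 40 kb it was 8614 of 9923, so such agreement is the common case. Among peaks with a −log10 q of 2 or more, Cdkn2c and Cdkn1a each kept 1 bone marrow peak and 0 fetal liver peaks. In the whole lists, 26.5% of bone marrow peaks and 15.2% of fetal liver peaks reached that value. With so few peaks, these counts are not read as a difference between the populations. In the joint Cdkn2a and Cdkn2b window of 80 kb, the peaks covered 39.9 kb (49.9%) in the bone marrow list and 47.0 kb (58.8%) in the fetal liver list. In the Cdkn1a window of 40 kb, they covered 4.83 kb (12.1%) and 6.50 kb (16.3%), in the same order. In the Cdkn2c window of 40 kb, they covered 3.12 kb (7.80%) and 8.85 kb (22.1%). The 30 kb Cdkn1b window held no peak of either list. Below Cdkn2a-Cdkn2b the order differed between the lists, with Cdkn1a ahead of Cdkn2c in bone marrow and behind it in fetal liver.

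Windows of these lengths hold a peak in a minority of the genome. When chromosomes 1 to 19 and X were divided into adjoining tiles of 80 kb, 23.1% held a bone marrow peak and 28.3% a fetal liver peak. Among 40 kb tiles the shares were 15.0% and 19.7%, and among 30 kb tiles they were 12.5% and 16.8%. Holding a peak was thus not the rule for a stretch of this length, and the empty Cdkn1b window was like the 81.4% of 30 kb tiles without a peak of either list. The tiles include stretches without genes, and the windows were placed on genes.

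**Figure D2:**
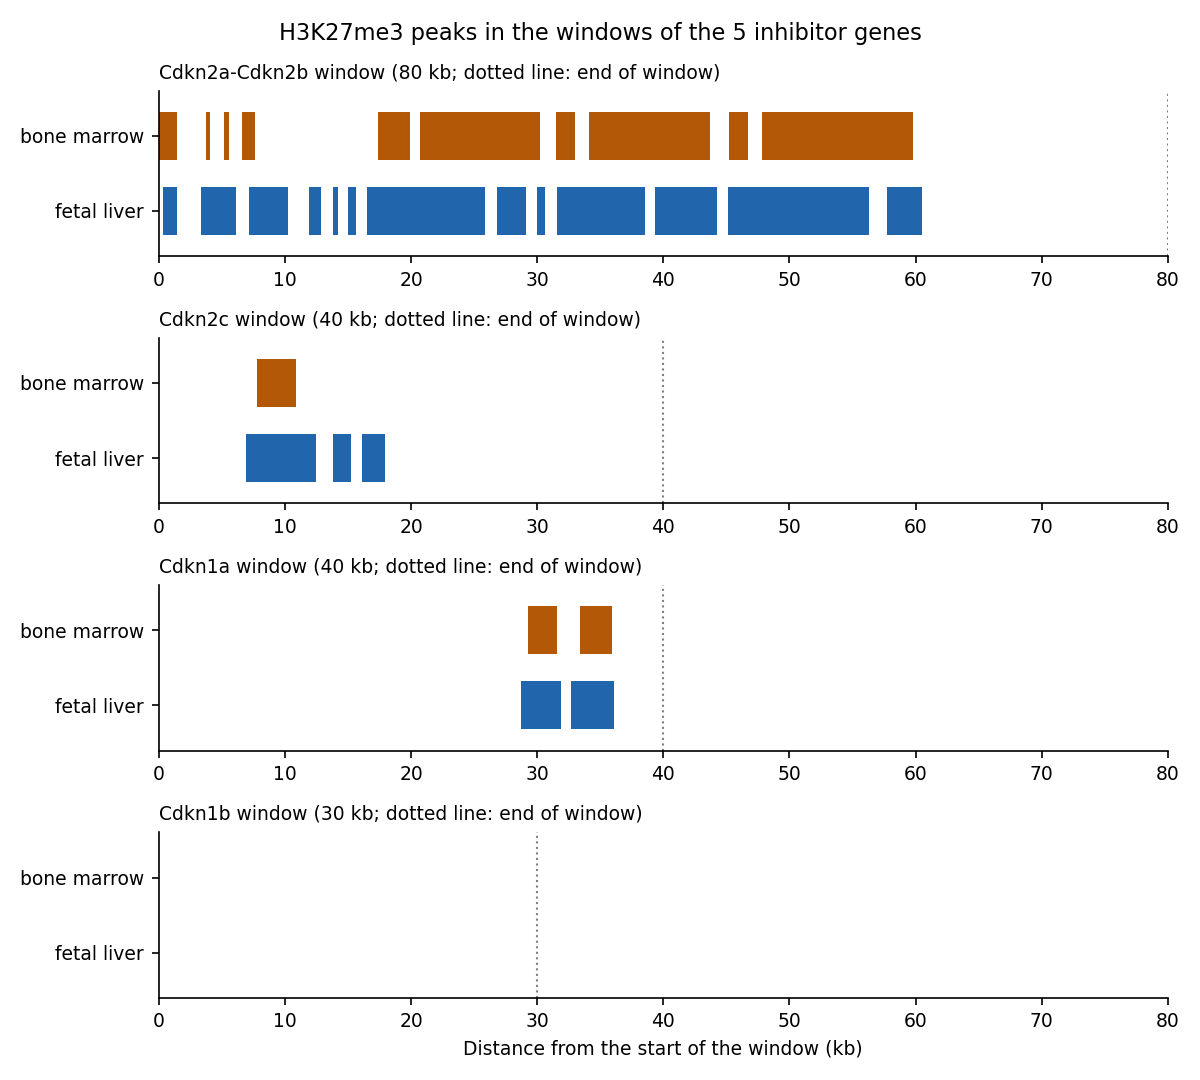
Position of each H3K27me3 peak in the 4 windows, by distance from the start of the window (horizontal axis, kb), in bone marrow (orange) and fetal liver (blue); each block is 1 peak, cut at the window. Peaks fill much of the first 60 kb at Cdkn2a-Cdkn2b in both lists, a few lie at Cdkn2c and Cdkn1a, and the Cdkn1b window is empty.

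The Cdkn2a-Cdkn2b window stood near the top of all tiles by coverage. Of the 32973 tiles of 80 kb, 51 (0.155%) were covered at least as much in bone marrow and 68 (0.206%) in fetal liver. Among tiles that held a peak, the median coverage was 2.95 kb for bone marrow and 3.31 kb for fetal liver. The Cdkn2c and Cdkn1a windows lay within the common range of marked tiles. At Cdkn2c, 41.0% of the 40 kb tiles with a bone marrow peak and 15.3% of those with a fetal liver peak were covered at least as much, and at Cdkn1a the shares were 27.5% and 22.8%. These ranks describe the genome of 1 list each and are not tests. The windows were placed around known genes, whereas tile edges fall at fixed steps and can cut a domain. Ranks were computed on the lists as deposited only. The fetal liver coverage behind the rank of Cdkn2a-Cdkn2b came mostly from peaks of modest score: it was 18.2 kb at a fold of at least 2 and 2.09 kb among peaks with a −log10 q of 2 or more, where the bone marrow coverage was 38.4 and 27.3 kb.

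**Figure D3:**
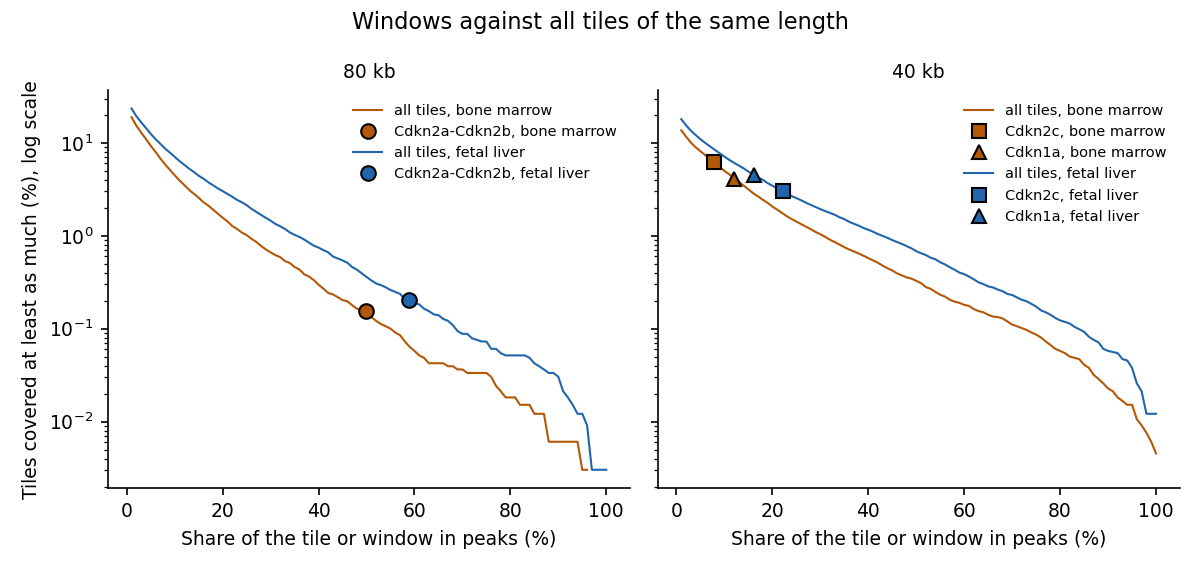
Percent of all tiles (vertical axis, log scale) that are covered by peaks at least as much as the share on the horizontal axis, for 80 kb tiles (left) and 40 kb tiles (right), in bone marrow (orange lines) and fetal liver (blue lines). Symbols set the marked windows on these lines: Cdkn2a-Cdkn2b lies at 0.155% and 0.206% of tiles, Cdkn2c and Cdkn1a between 3.02% and 6.17%.

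The window of Cdkn2a and Cdkn2b, the genes of p16INK4a, p19ARF and p15INK4b, held a broad interrupted domain. In bone marrow 10 peaks made it up. The widest spanned 12.0 kb, from 88947866 to 88959820, with a fold enrichment over input of 2.48 and a −log10 q of 2.32, both as the authors' peak caller averaged them over the peak. The next 2 spanned 9.62 kb, from 88934075 to 88943695, with a fold of 2.40, and 9.54 kb, from 88920713 to 88930254, with a fold of 2.61. These 3 peaks were the only ones of at least 5 kb and held 78.0% of the covered bases of the window. Peaks of that width made up 9.54% of the whole bone marrow list. The other 7 peaks were 319 to 2533 bp wide, with folds from 1.73 to 3.27 and −log10 q from 1.17 to 3.41, so the highest values of the window lay in its short peaks.

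In fetal liver 13 peaks covered the same stretch. The widest spanned 11.2 kb, from 88945107 to 88956316, with a fold of 1.85 and a −log10 q of 0.934. The others of at least 5 kb spanned 9.34 kb, from 88916539 to 88925875, with a fold of 2.09, and 6.94 kb, from 88931587 to 88938526, with a fold of 1.86. Together these 3 held 58.4% of the covered bases, so that more of the fetal liver coverage came from short peaks than in bone marrow. Peaks of at least 5 kb were 8.02% of the fetal liver list. The other 10 peaks were 406 to 4940 bp wide, with folds from 1.58 to 3.62 and −log10 q from 0.669 to 3.79.

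Both lists ended the domain at nearly the same place and differed most in the first 20 kb of the window. The last covered base was 88959820 in bone marrow and 88960504 in fetal liver, and the remaining 20.2 and 19.5 kb of the window were free of peaks. From 20 to 60 kb into the window the coverage of successive 10 kb bins was 92.9%, 76.6%, 73.6% and 98.2% in bone marrow and 82.0%, 81.9%, 91.9% and 85.8% in fetal liver. In the first 20 kb it was 32.4% and 25.3% in bone marrow but 68.1% and 55.7% in fetal liver. That is where bone marrow had its longest gap, 9.71 kb from 88907635 to 88917348, of which fetal liver peaks covered 5.29 kb (54.4%). Of the 5 fetal liver peaks that touched the gap, 3 lay wholly inside it, with widths of 932, 406 and 557 bp. The last of them, from 88915044 to 88915600, had the highest fold of the fetal liver peaks in the windows, 3.62, and a −log10 q of 3.79, at percentiles 98.8 and 98.1 of the fetal liver list.

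The bases marked in both lists at Cdkn2a-Cdkn2b came to 34.9 kb. They made up 87.4% of what bone marrow peaks covered there and 74.2% of what fetal liver peaks covered. Shared bases over all tiles were not computed, so these shares are not read as particular to the locus. Bone marrow alone covered 5.02 kb and fetal liver alone 12.2 kb. The longest stretch of bone marrow alone was 1.43 kb, from 88956317 to 88957741, between the last fetal liver peaks. After joining peaks at most 3 kb apart, fetal liver had 1 domain of 61.2 kb, whereas bone marrow had 2, the wider of 42.5 kb. Both lists began before the window, fetal liver at 88899260 and bone marrow at 88899430.

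The window of Cdkn2c, which codes for the INK4 protein p18INK4c, held 1 bone marrow peak of 3.12 kb, from 109327788 to 109330908. Its fold was 3.32 and its −log10 q 5.03, at percentiles 95.1 and 98.5 of the bone marrow list and the highest of the bone marrow peaks in the windows by either measure. Fetal liver had 3 peaks, a first of 5.54 kb from 109326950 to 109332484 that contained the whole bone marrow peak, and others of 1.48 kb from 109333796 to 109335274 and 1.84 kb from 109336131 to 109337966. Their folds were 2.17, 2.08 and 1.65 and their −log10 q 1.58, 1.20 and 0.926. The bone marrow peak was thus the narrower and scored high within its list, and the fetal liver peaks were spread over 11.0 kb, at percentiles 36.6 to 73.8 of their list by −log10 q. Fetal liver covered 2.84 times as many bases, against a median of 1.37 (interquartile range 0.963 to 2.27) over the 8614 tiles of 40 kb with a peak of both lists. The same ratio was 1.35 at Cdkn1a, and at Cdkn2a-Cdkn2b it was 1.18, against a median of 1.40 over tiles of 80 kb. In the full lists Cdkn2c was thus the only marked window above its tile median. Its fetal liver coverage was 7.01 kb with that list reduced to 20024 peaks, and 0 kb at a −log10 q of at least 2. Tile ratios were not computed at these settings. The scores of different lists are given side by side only, since lists of unknown depth need not share a scale. On GRCm38.p6 the protein-coding neighbours of Cdkn2c are 4930522H14Rik at lower coordinates and Faf1 at higher ones. Gene positions on mm9 were not used. Which gene the peaks of this window or of the Cdkn2a-Cdkn2b window lie over was therefore not determined.

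The window of Cdkn1a, which codes for p21CIP1, a main target of p53, held a pair of peaks in each list, at matching places. In bone marrow they spanned 2.29 kb from 29239310 to 29241603, with a fold of 2.49, and 2.53 kb from 29243435 to 29245968, with a fold of 2.56. In fetal liver they spanned 3.12 kb from 29238749 to 29241868, with a fold of 2.07, and 3.38 kb from 29242698 to 29246081, with a fold of 2.03. Each fetal liver peak contained the bone marrow peak whole. All of the bone marrow coverage and 74.2% of the fetal liver coverage was thus shared. Here too, the share over all tiles was not computed. All 4 peaks lay in the last part of the window, and the window was free of bone marrow peaks over its first 29.3 kb and of fetal liver peaks over its first 28.7 kb. On GRCm38.p6 the protein-coding neighbours of Cdkn1a are Srsf3 on the side of lower coordinates and Rab44 on the side of higher ones. Which gene the peaks lie over on mm9 is not given by the tables used here.

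Cdkn1b, which codes for p27KIP1, a brake on the division of blood progenitors, had no peak of either list in its window, and none close to it. The closest were on the side of higher coordinates, a fetal liver peak of 4.65 kb that began 99.0 kb beyond the window and a bone marrow peak of 3.93 kb at 99.1 kb, at the same place. On the other side the closest were 322.2 kb away in fetal liver and 335.5 kb in bone marrow. Its promoter sequence is the CpG-rich one printed with those of Cdkn2a.

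Across the 3 marked windows, the bone marrow peaks scored high for their list and the fetal liver peaks less so. The median fold of the 13 bone marrow peaks was 2.61, against 2.12 for the whole list, and 12 of them were above that list median. The median fold of the 18 fetal liver peaks was 2.07, against 1.93, with 11 above. These peaks are not separate loci. At Cdkn2a-Cdkn2b lay 10 of the bone marrow peaks, 9 of them above the median fold of their list. There also lay 13 of the fetal liver peaks, 7 of them above the median fold of theirs. The counts thus mostly describe that interrupted domain. A −log10 q of at least 2 was reached by 9 of the 13 bone marrow peaks, where 26.5% of the list reached it, and by 3 of the 18 fetal liver peaks, where 15.2% did. The fetal liver count is close to that background. All 3 of these fetal liver peaks were at Cdkn2a-Cdkn2b, and they were 1122, 406 and 557 bp wide.

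**Figure D4:**
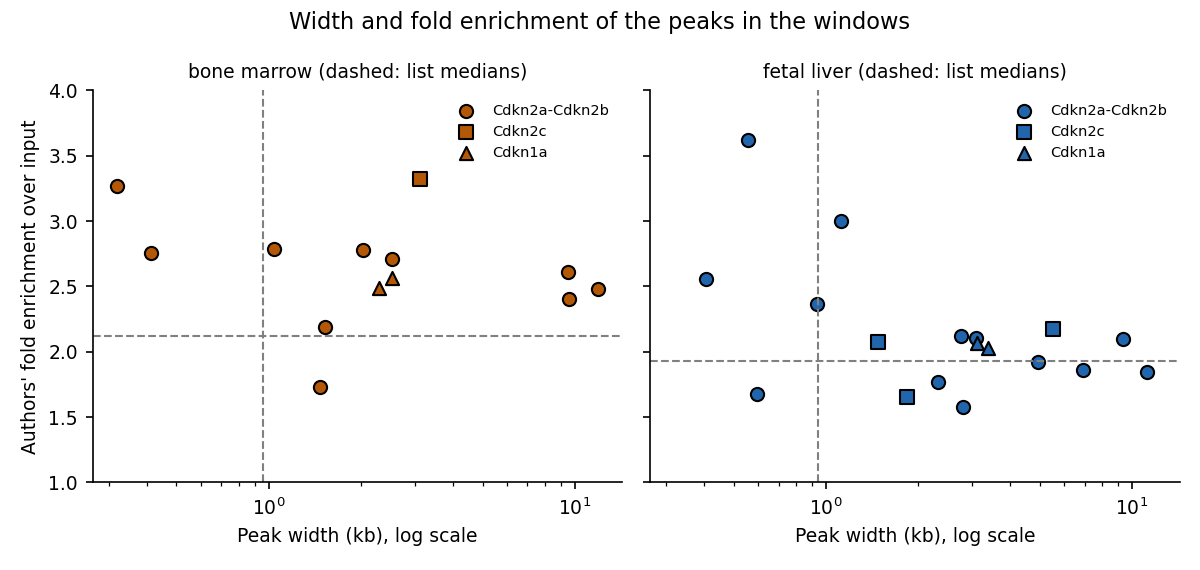
Width (horizontal axis, kb, log scale) and the authors' fold enrichment over input (vertical axis) of each peak in the windows, in bone marrow (left, 13 peaks) and fetal liver (right, 18 peaks); symbols give the window and dashed lines the medians of the whole list. In bone marrow 12 peaks lie above the median fold of 2.12, and in fetal liver 11 lie above the median of 1.93.

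Every bone marrow peak in the windows overlapped a fetal liver peak, 13 of 13, where 72.3% of the bone marrow peaks on chromosomes 4 and 17 did. Of the fetal liver peaks 13 of 18 overlapped a bone marrow peak, where 42.6% of those on the same chromosomes did. Of the overlapping peaks, 10 of each list belonged to the interrupted domain at Cdkn2a-Cdkn2b. The median widths of the peaks in the windows were 2294 bp in bone marrow and 2789 bp in fetal liver. The whole lists had medians of 957 and 945 bp, and whether width accounts for the overlap was not tested. The 5 without an overlap were the 3 in the bone marrow gap at Cdkn2a-Cdkn2b and the 2 shorter peaks of Cdkn2c, and they lay 1748 to 5222 bp from the nearest bone marrow peak. The fetal liver peaks covered more in each of the 3 marked windows, by 7.14 kb at Cdkn2a-Cdkn2b, 5.73 kb at Cdkn2c and 1.68 kb at Cdkn1a. Most tiles marked in both lists go the same way, 74.1% of those of 80 kb and 72.4% of those of 40 kb, so the direction is the common one. When only the 20024 fetal liver peaks with the highest −log10 p were kept, the difference at Cdkn2a-Cdkn2b was 1.40 kb. The direction turned around among peaks whose −log10 q was 2 or more, to differences of -25.2, -3.12 and -2.53 kb, and at Cdkn2a-Cdkn2b also at a fold of at least 2, to -20.2 kb. At a fold of at least 3 it turned at Cdkn2c, to -3.12 kb. The share of all tiles that turn at these cuts was not computed. The −log10 q cut kept 26.5% of the whole bone marrow list and 15.2% of the fetal liver list. The turns are therefore not read as particular to these loci.

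The surroundings differed between the loci. Over the 500 kb on either side, peaks covered 3.26% of bone marrow and 4.80% of fetal liver sequence around Cdkn2a-Cdkn2b, so the window was 15.3 and 12.2 times as densely covered. The Cdkn1a surroundings were sparse, at 0.761% and 1.11%, and the small pair of peaks in the window still made it 15.9 and 14.7 times as dense. At Cdkn2c the window was only 1.86 and 3.78 times as dense as its surroundings, which held a broad domain 283.3 kb beyond the window in bone marrow, with a peak of 18.5 kb, and 282.7 kb beyond it in fetal liver, with a peak of 25.2 kb. In fetal liver a peak of 4.05 kb also ended 1.41 kb before the Cdkn2c window, while the closest bone marrow peak on that side was 20.6 kb away. Around Cdkn1b the coverage was 0.879% in bone marrow and 1.54% in fetal liver.

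**Figure D5:**
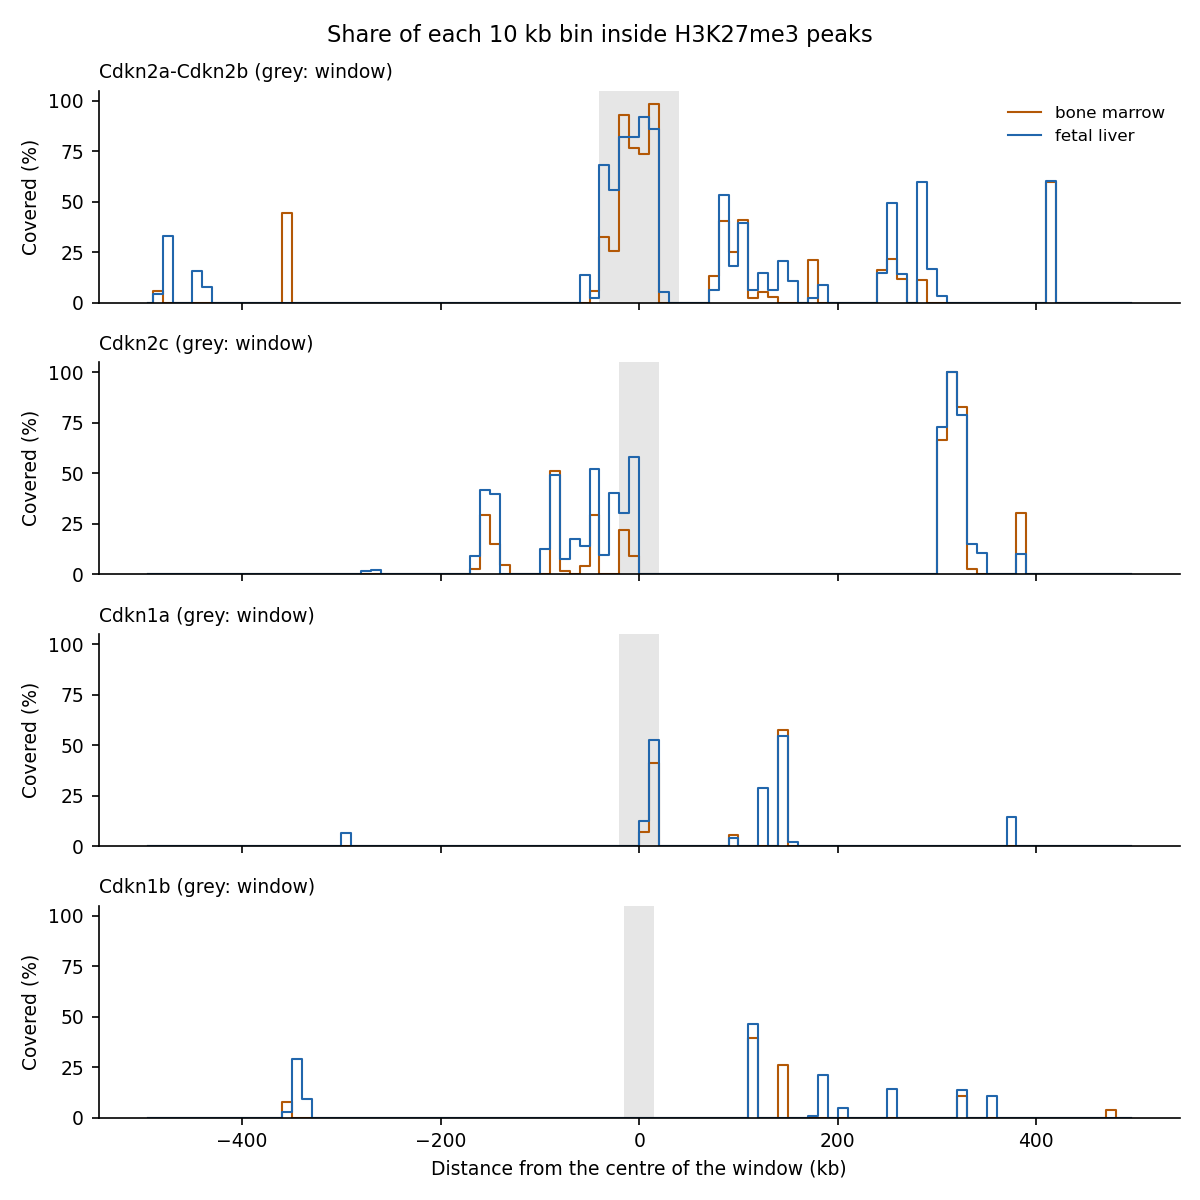
Share of each 10 kb bin inside peaks (vertical axis, percent) by distance from the centre of the window (horizontal axis, kb), in bone marrow (orange) and fetal liver (blue), with the window in grey. The Cdkn2a-Cdkn2b window holds the densest bins of its surroundings in both lists, the Cdkn2c surroundings hold a denser domain 283.3 kb beyond the window, and the Cdkn1b window lies in a stretch without peaks.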

How the data were processed

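Peaks were deposited by the authors as 1 broad peak list for each population. The tools were BWA 0.5.7, MACS2 2.1.0 and Picard on build mm9, per the submitters' processing notes. Their settings and filters, the depth and how many libraries were merged are not stated in the sources used here. The fold enrichment column deposited by the authors is their ratio of immunoprecipitation to input. The deposited significance columns are the authors' −log10 p and −log10 q. The deposited score column, 10 times the −log10 q without decimals, was not used. Fold, −log10 p and −log10 q are means over the peak in this format, which lowers them in wide peaks with local maxima.

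Peaks overlapping a window by 1 bp were counted, and covered bases were clipped to the window, in Python 3.11.15 (pandas 2.3.3, numpy 2.4.6). Coordinates count from 1. Chromosome lengths came from GenomeInfoDb 1.38.1. Tile coverage was tested on simulated data against bedtools 2.31.1, and all 424 simulated tiles were recovered. Figures were drawn with matplotlib 3.10.9. The inputs served the authors' calls and were not analysed on their own. With 1 list for each population no test was made. All 5 genes of the rule and every peak over their windows are described. No gene table on mm9 was used here, so other genes of the pathway were not placed. The members and lists were chosen with earlier results of these data known. The alternatives were cuts on −log10 q, fold and width, a fetal liver list reduced to 20024 peaks by −log10 p, wider windows, and other ways to count overlap and tiles.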

Additional observations from a re-analysis of the deposited data

How the results depend on the processing

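No paired analysis was possible because each population has a single list. Of 178 alternative values, 136 stayed within 1.5 times the reported value, 37 moved by more and 5 turned a direction. The 136 include values that could not move, so their share does not measure stability. Such values include the 0 values of Cdkn1b and the bone marrow values under the reduced fetal liver list. The count of 1 bone marrow peak at Cdkn2c under joining is another. The differences given are fetal liver minus bone marrow, in covered kb. With −log10 q cut at 2 they were -25.2 at Cdkn2a-Cdkn2b, -3.12 at Cdkn2c and -2.53 at Cdkn1a. There, fetal liver kept 3 peaks over 2.09 kb at Cdkn2a-Cdkn2b and 0 peaks over 0 kb at Cdkn2c and Cdkn1a, and bone marrow kept 1 peak over 2.53 kb at Cdkn1a. At a fold of at least 2 the Cdkn2a-Cdkn2b difference was -20.2, with 7 fetal liver peaks over 18.2 kb. At a fold of at least 3 Cdkn2a-Cdkn2b had 1 bone marrow peak over 0.319 kb and 2 fetal liver peaks over 1.68 kb, a difference of 1.36. At that fold Cdkn2c had 0 fetal liver peaks over 0 kb, a difference of -3.12, and Cdkn1a had 0 peaks over 0 kb in bone marrow and in fetal liver, a difference of 0. The fetal liver list reduced to 20024 peaks gave a difference of 1.40 at Cdkn2a-Cdkn2b. Joining peaks within 3 kb left 2 bone marrow peaks and 1 fetal liver peak at Cdkn2a-Cdkn2b, 1 fetal liver peak at Cdkn2c, and 1 peak of each list at Cdkn1a. Windows wider by 20 kb on each side gave Cdkn2c 5 fetal liver peaks over 13.9 kb, a difference of 10.8. Tiles with at least 10% in peaks were 4.48% of 80 kb, 4.98% of 40 kb and 4.95% of 30 kb tiles in bone marrow, and 7.07%, 7.11% and 6.94% in fetal liver. Cdkn1b stayed at 0 peaks, but no alternative run could have changed that. Cuts only drop peaks, and the closest peak lay 99.0 kb beyond the window, past the widening of 20 kb. A looser calling threshold was not tried. The cause of the turns was not tested, and the share of all tiles that turn at these cuts was not computed. The unknown depth limits each comparison of covered length.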
